A study of Mus musculus with 6 samples.

Results

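The neurotrophins and their receptors were examined in forebrain RNA of mice given 1 h of water avoidance stress (WAS). The genes were taken by symbol from the deposited count tables. They were the ligand genes Bdnf and Ntf3, the receptor tyrosine kinase genes Ntrk2 and Ntrk3, and Ngfr, which encodes the p75 neurotrophin receptor. All 5 were found among 23282 entries and all 5 passed the filter on low counts, which 15239 entries passed. Each library came from 1 male C57BL/6J mouse, 8 to 10 weeks old, that carried no transgene or deletion named in the labels. In the group labelled WAS, 3 mice spent 1 h on a small platform surrounded by water. In the group labelled control, 3 mice spent 1 h on the same platform in a container without water. Mice were killed directly afterwards, and the forebrain without olfactory bulb and cerebellum was split into its hemispheres for RNA and metabolite measurements, so that cortex, hippocampus, striatum, thalamus and other regions were measured together.

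Neurotrophins are secreted growth factors that keep neurons alive and adjust synapses. They are made as precursors that proteases cut to the mature form. Mature brain-derived neurotrophic factor (BDNF) binds the kinase TrkB, encoded by Ntrk2, and neurotrophin-3 binds TrkC, encoded by Ntrk3. The p75 receptor binds all neurotrophins and has a high affinity for the uncut precursors. In the brain, Bdnf mRNA is best known from excitatory neurons of cortex and hippocampus, where it responds to neuronal activity. Ntrk2 is used by neurons and, in a form without kinase, by astrocytes, and Ngfr marks cholinergic neurons of the basal forebrain.

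On the mouse assembly GRCm38 (mm10), RefSeq places Bdnf at chr2:109674700-109727043 on the plus strand, Ntf3 at chr6:126101412-126166772 on the minus strand, Ntrk2 at chr13:58806472-59133970 on the plus strand, Ntrk3 at chr7:78179986-78581034 on the minus strand and Ngfr at chr11:95568818-95587698 on the minus strand. The sequencing method, QuantSeq, starts from the poly(A) tail and reads each transcript near its end. The count of a gene is therefore a sum over all of its start sites. For Bdnf this matters, because the gene has many alternative first exons in front of 1 shared coding exon. As annotated in GENCODE M21, the 11 coding transcripts of Bdnf have 1 end and those of Ntrk2 and Ntrk3 have 6 and 5. Ends up to 100 bases apart were merged, and the ends in use in these libraries were not examined. Forms with and without the kinase domain were summed in the counts of Ntrk2 and Ntrk3. GENCODE M21 has genes on the opposite strand inside the span of Bdnf, Ntrk2 and Ntrk3, and the strand setting of the counting is not given in the sources used here. It also has genes on the same strand that overlap Ntrk2 and Ntrk3, which a strand setting would not separate. In the last 500 bases of the transcripts, a stretch of 50 bases was shared with 1 other gene for Ntrk2, with 2 for Ntrk3 and with 0 for Bdnf, Ntf3 and Ngfr.

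RefSeq promoter windows, each from 250 bases before a start site to 50 bases after it, were available for 4 of the 5 genes, with 7 windows for Bdnf, 2 for Ntf3 and 1 each for Ntrk2 and Ngfr. The window below is shown because it is the only one of these 11 with the sequence TCACGTCA, a variant of the cyclic AMP response element (CRE) through which neuronal activity is known to act on Bdnf. The capitals mark it, 38 bases before the start site on the plus strand.

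Bdnf, chr2:109692186-109692485, GRCm38.p6: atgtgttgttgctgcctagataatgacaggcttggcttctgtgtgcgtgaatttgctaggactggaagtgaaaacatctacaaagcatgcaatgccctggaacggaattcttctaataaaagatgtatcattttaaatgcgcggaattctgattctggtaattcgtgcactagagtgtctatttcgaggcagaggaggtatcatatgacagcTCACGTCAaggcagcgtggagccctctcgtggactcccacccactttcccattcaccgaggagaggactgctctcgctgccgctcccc

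TCACGTCA occurred on either strand in 0.441% of all 32851 promoter windows and the unchanged palindrome TGACGTCA in 1.79%. The palindrome was in 0 of the 11 windows. The 5-base core CGTCA, contained in both, occurred in 20.8% of all windows and again only in this one of the 11. The E-box CACGTG was found in 1 window of Ntf3 (7.15% of all windows). The motif AGAACA, part of the glucocorticoid response element, was found in 3 of the 7 Bdnf windows (19% of all windows). The 3′ counts do not separate transcripts by start site, so that no level can be given for this window alone.

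The 3 libraries labelled WAS had totals from 9248520 to 10067053 counts and the 3 labelled control from 9977945 to 10502029. Levels are given as CPM, counts scaled to a library of 1000000 counts with TMM factors. The count column is headed with a name in WC for every library labelled WAS and in WS for every one labelled control, names that the sources used here leave undefined. Groups were taken from the sample labels, and with exchanged labels each direction given here would be the opposite. Regional markers differed between libraries of the same group. The summed level of striatal projection neuron markers was 106 CPM in WAS replicate 1 and 248 CPM in WAS replicate 3, against 688 to 1360 CPM in the other 4 libraries. Choroid plexus markers were at 41.4 CPM in WAS replicate 1 and at 16.4 CPM in control replicate 2, and between 905 and 1239 CPM elsewhere. Markers of the removed regions were low, with at most 36.6 CPM for cerebellar neurons and at most 5.65 CPM for mitral cells of the olfactory bulb, and pan-neuronal markers summed to between 4470 and 5785 CPM.

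Bdnf, the ligand of TrkB, did not differ between the groups beyond the spread of the libraries. The counts of Bdnf were 1442, 847 and 1774 in WAS replicates 1 to 3, against 1528, 1483 and 1259 in control replicates 1 to 3. WAS replicate 2 was the lowest of the 6 libraries and WAS replicate 3 the highest, so that the control libraries all lay inside the range of the group labelled WAS. The mean was 136 ± 42.7 CPM (SD, n = 3) under WAS and 140 ± 9.21 CPM (SD, n = 3) under control. The log2 fold change was -0.043 ± 0.18 (SE, edgeR adjusted p = 0.977 by the Benjamini-Hochberg method). Its 95% interval on the fold scale was 0.735 to 1.28, inside the 1.5-fold cutoff of the study in either direction. Without WAS replicate 2 the log2 fold change was 0.18, and without WAS replicate 3 it was -0.27, with an interval that reached down to 0.642-fold. For Bdnf the adjusted p lay between 0.512 and 1 over 12 alternative analyses.

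The counting error of a library is 2.68% at the mean count of Bdnf, and the coefficient of variation over the 6 libraries was 20.1%. The biological coefficient of variation fitted for Bdnf was 16.5%, against 10.7% on the trend at its abundance. Whether the spread differs between the groups was not tested. Markers of cortical and hippocampal excitatory neurons, the cells known for Bdnf, were lower in the libraries labelled WAS, at 2674 to 3115 CPM against 3510 to 3582 CPM. All 8 markers were below 0 on the log2 scale, where 50.2% of all genes were above 0. Of these 8 markers, 4 had an unadjusted p under 0.05 by edgeR, beside 7.24% of all genes. The lowest library of this list was WAS replicate 3, which had the highest Bdnf. Dentate granule cell markers were at 91.8 and 56.9 CPM in WAS replicates 1 and 3 and at 11.01 CPM in WAS replicate 2, the library with the lowest Bdnf. They were at 34.1, 8.51 and 12.5 CPM in the control libraries, where Bdnf was at 145, 145 and 129 CPM. Of the 6 dentate markers, 5 were tested, all above 0 and 2 with an unadjusted p under 0.05 by edgeR. Their part in the Bdnf levels was not tested. In bulk tissue, fewer cells of a type and less RNA per cell cannot be told apart.

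Ntf3, which encodes neurotrophin-3, was close to the lower limit of detection. WAS replicates 1 to 3 held 12, 4 and 20 Ntf3 counts, and control replicates 1 to 3 held 7, 8 and 11. The exact 95% Poisson intervals of the lowest and highest of these counts were 1.09 to 10.2 and 12.2 to 30.9, and such intervals cover counting error only. As for Bdnf, WAS replicate 2 was the lowest library and WAS replicate 3 the highest, and the groups overlapped. Ntf3 was at 1.19 ± 0.775 CPM (SD, n = 3) under WAS against 0.859 ± 0.241 CPM (SD, n = 3) under control. The log2 fold change of 0.48 ± 0.59 (SE, edgeR adjusted p = 0.928) had an interval from a fold change of 0.573 to 3.41. This interval holds a 1.5-fold difference in either direction. The coefficient of variation of Ntf3 over the 6 libraries was 53.1%, beside a counting error of 31.1%. Without WAS replicate 3 the value was -0.082, and without WAS replicate 2 it was 0.87. The dentate granule cell is a known source of Ntf3 in the forebrain, and the 3 highest Ntf3 libraries were WAS replicate 3, WAS replicate 1 and control replicate 3, whereas the 3 highest for the dentate markers were WAS replicate 1, WAS replicate 3 and control replicate 1.

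Ntf5, which encodes neurotrophin-4/5, had at most 5 counts in a library and was not tested.

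**Figure D1:**
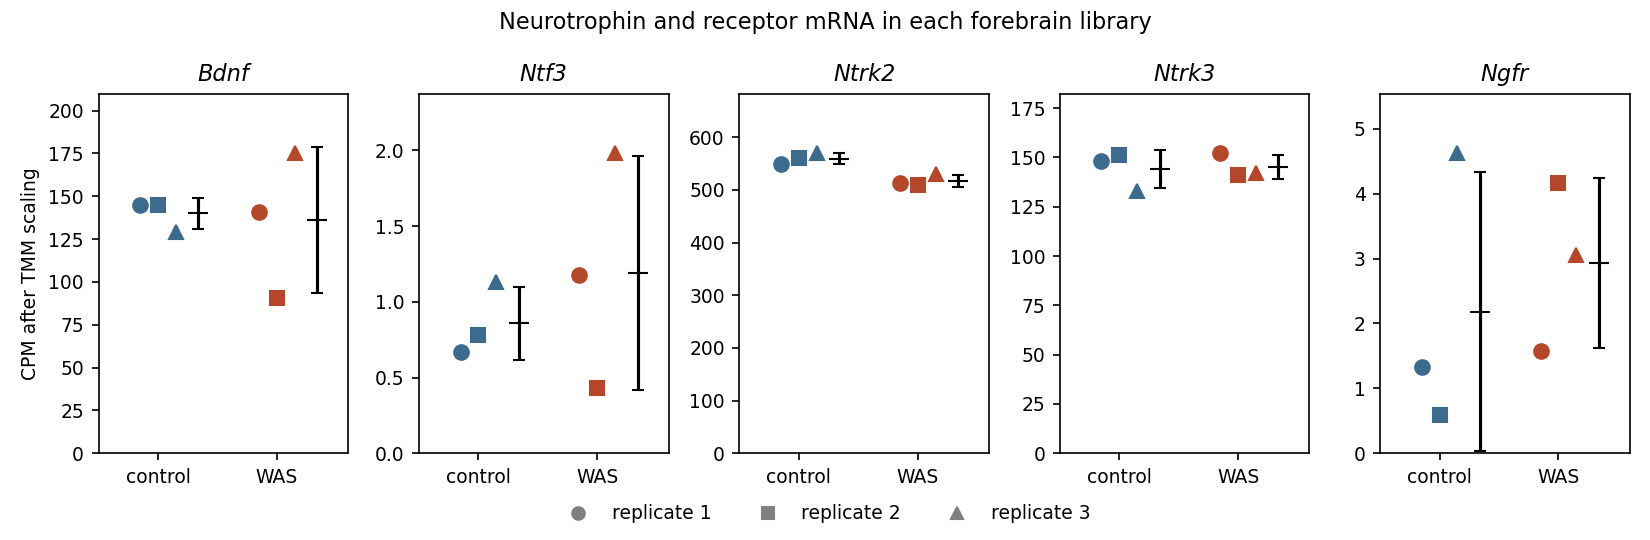
Level of each gene in CPM after TMM scaling (vertical axes from 0, a separate scale for each gene), with 1 point per library, the point shape giving the replicate number and the bar beside each group its mean ± SD (n = 3). Ntrk2 is the only gene whose groups are apart, at 509 to 530 CPM in WAS against 549 to 569 CPM in control, and Bdnf, Ntf3 and Ngfr spread over 1.94-fold, 4.62-fold and 7.88-fold ranges.

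Ntrk2, which encodes TrkB, was the most abundant of the 5 genes and was slightly lower in every library labelled WAS than in any labelled control. The counts of Ntrk2 were 5236, 4763 and 5358 in WAS replicates 1 to 3, against 5770, 5724 and 5542 in control replicates 1 to 3. Scaled to library size, these were 513, 509 and 530 CPM against 549, 560 and 569 CPM. The groups did not overlap, which was the case for 11.7% of all genes tested. The means were 517 ± 10.9 CPM (SD, n = 3) and 559 ± 9.94 CPM (SD, n = 3). The log2 fold change was -0.11 ± 0.073 (SE, edgeR adjusted p = 0.81 by the Benjamini-Hochberg method), and the unadjusted p was 0.149. The interval ran from a fold change of 0.828 to 1.03, so that a change of 1.5-fold lay outside it and a fold change of 1 inside it.

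The direction of Ntrk2 was the same in each of 12 alternative analyses, with log2 fold changes between -0.131 and -0.071. Total-count scaling gave -0.075 and quantile normalization -0.071. Astrocyte markers summed to between 3626 and 3776 CPM in the libraries labelled WAS and to between 3767 and 3981 CPM in those labelled control. The mean of this sum was lower under WAS, at 3723 against 3887 CPM, although 5 of the 8 single markers were above 0. Of the 8, 1 had an unadjusted p under 0.05 by edgeR. Pan-neuronal markers were at 4470 to 4936 CPM against 5287 to 5785 CPM and did not overlap. Of these 5, 1 was above 0 and 2 had an unadjusted p under 0.05 by edgeR, beside 50.2% and 7.24% of all genes. The part of both lists in the Ntrk2 difference was not tested. The fitted biological coefficient of variation of Ntrk2 was 8.92%, below the 11.3% on the trend at its abundance.

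Ntrk3, which encodes TrkC, was nearly level. WAS replicates 1 to 3 held 1555, 1322 and 1438 Ntrk3 counts, against 1560, 1540 and 1295 in control replicates 1 to 3. The highest library was WAS replicate 1 at 152 CPM and the lowest was control replicate 3 at 133 CPM, a 1.15-fold range over all 6 libraries. The means of 145 ± 6.15 CPM (SD, n = 3) for WAS and 144 ± 9.61 CPM (SD, n = 3) for control gave a log2 fold change of 0.013 ± 0.085 (SE, edgeR adjusted p = 0.987). The interval on the fold scale was 0.886 to 1.15. Its sign turned around without WAS replicate 1 (-0.026) or control replicate 3 (-0.042). All 6 thalamic neuron markers were above 0 on the log2 scale, and 4 had an unadjusted p under 0.05, beside 7.24% of all genes. Their summed level was 690 and 585 CPM in WAS replicates 1 and 3, against 289 to 303 CPM in the other 4 libraries. Ntrk3 was at 152 and 142 CPM in those replicates, just above the control range of 133 to 151 CPM and inside it.

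The ratio of the Trk receptor transcripts within a library ranged less widely than that of receptor to ligand. Ntrk2 exceeded Ntrk3 by 3.37, 3.6 and 3.73 times in WAS replicates 1, 2 and 3, and by 3.7, 3.72 and 4.28 times in the control replicates. The same ratio of Ntrk2 to Bdnf was 3.63, 5.62 and 3.02 against 3.78, 3.86 and 4.4. The outlying values of 5.62 and 3.02 both belonged to libraries labelled WAS and followed the Bdnf counts. Since both genes of a ratio were read at the transcript end, gene length does not enter it, although capture may differ between genes.

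Ngfr, which encodes the p75 receptor, had the widest spread among the libraries of the 5 genes. The counts of Ngfr were 16, 39 and 31 in WAS replicates 1 to 3, against 14, 6 and 45 in control replicates 1 to 3. Control replicate 3 was the highest and control replicate 2 the lowest of all 6, a 7.88-fold range in CPM, and their exact 95% Poisson intervals of 32.8 to 60.2 and 2.20 to 13.1 counts did not touch. Ngfr was at 2.93 ± 1.31 CPM (SD, n = 3) under WAS and at 2.18 ± 2.15 CPM (SD, n = 3) under control. The log2 fold change was 0.43 ± 0.62 (SE, edgeR adjusted p = 0.942), with an interval from a fold change of 0.525 to 3.47. A 1.5-fold difference of Ngfr could not be detected against this spread. The coefficient of variation over the libraries was 64.2%, against a counting error of 19.9%, and the fitted biological coefficient of variation was 50.1%, against 28.6% on the trend. Without control replicate 3 the log2 fold change was 1.59 (unadjusted p 0.0222, edgeR adjusted p = 0.6), and without control replicate 2 it was -0.017. Over its alternatives the adjusted p of Ngfr ran from 0.6 to 1.

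The 2 libraries with the highest Ngfr were also the highest in markers of forebrain cholinergic neurons. The summed level of this list was 2.74, 56.1 and 17.1 CPM in WAS replicates 1, 2 and 3, and 23.1, 21.1 and 51.8 CPM in control replicates 1, 2 and 3. For Ngfr the CPM values in the same order were 1.57, 4.17 and 3.06, and 1.33, 0.587 and 4.62. WAS replicate 2 and control replicate 3 were the highest libraries in both measures, while the order of the other 4 libraries differed. Of the 6 cholinergic markers, 5 were tested, 1 of them above 0 on the log2 scale. At an unadjusted p under 0.05 there were 0, beside 7.24% of all genes, and Gbx1 was at 0 in every library. Meningeal fibroblasts can express Ngfr too, and their markers lay between 137 and 197 CPM in the libraries labelled WAS and between 89.7 and 151 CPM in those labelled control, with control replicate 2 the lowest in both Ngfr and this list. All 6 meningeal markers were above 0, and 2 had an unadjusted p under 0.05. The part of cholinergic and meningeal cells in the Ngfr levels was not tested.

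**Figure D2:**
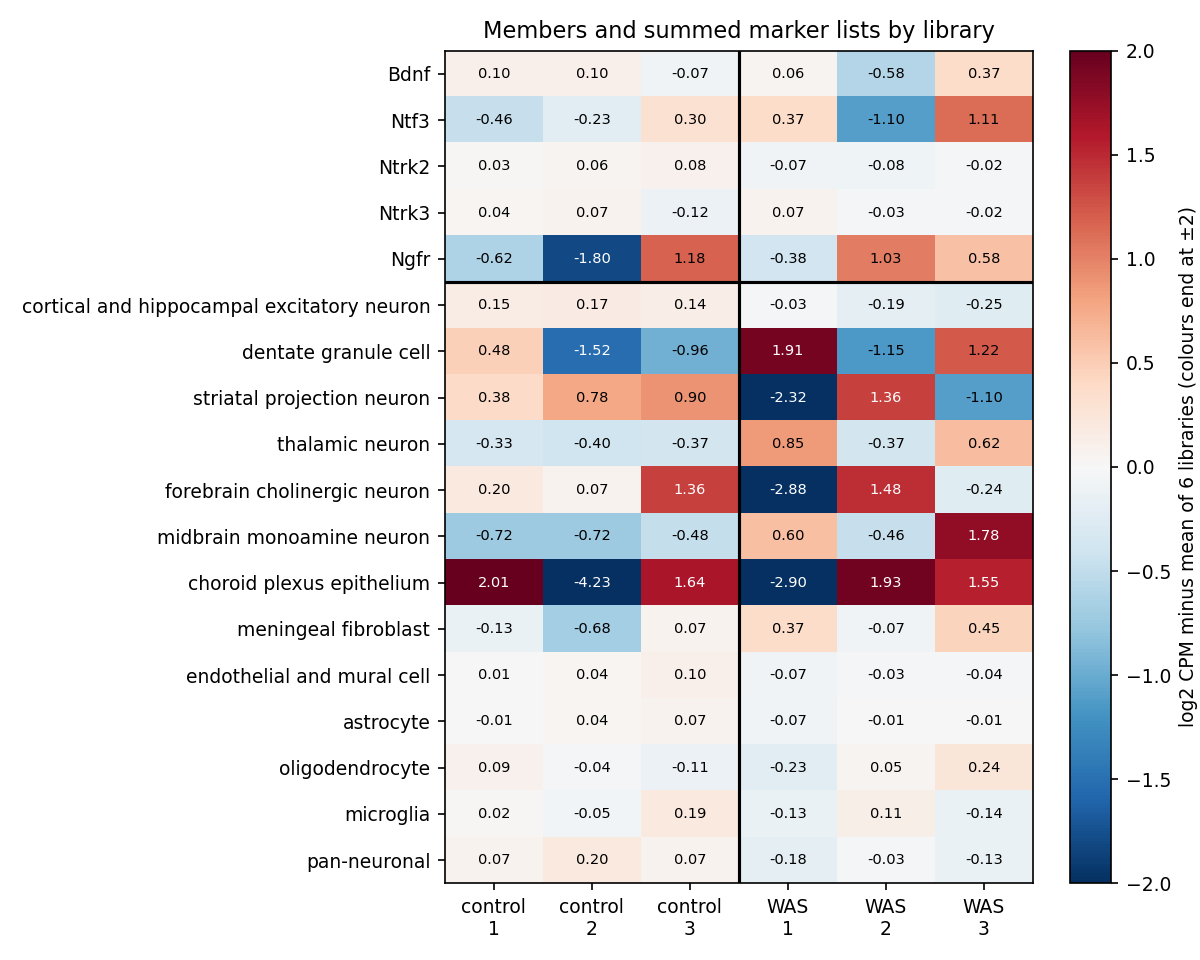
Log2 CPM of each gene and of each summed marker list, less the mean over the 6 libraries (rows, with the 5 genes above the line; columns, the libraries; colour, which ends at ±2, and number, the log2 difference). Ngfr and the forebrain cholinergic list share their highest libraries, control 3 (1.18 and 1.36) and WAS 2 (1.03 and 1.48). Ntrk2 and Ntrk3 stay between -0.12 and 0.08, while the choroid plexus list spans -4.23 to 2.01 and the striatal list -2.32 to 1.36.

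Across the 5 genes, 0 passed an adjusted p of 0.05 by edgeR's quasi-likelihood test, as did 0% of the 15239 genes tested, and 0 had an unadjusted p under 0.05, against 7.24% of all genes. The study's criteria, 1.5-fold or more with an unadjusted p under 0.05, were met by 0 of the 5 and by 2.49% of all genes. With limma on quantile-normalized counts 0 of the 5 passed an adjusted p of 0.05, and with DESeq2 0 of the 3 for which it gave one, Bdnf, Ntrk2 and Ntrk3. The groups were apart for 1 of the 5 genes, Ntrk2, beside the 11.7% given above. For Bdnf, Ntrk2 and Ntrk3 the 95% intervals lay within a 1.5-fold difference in both directions, and for Ntf3 and Ngfr they reached beyond a 3-fold higher level.

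**Figure D3:**
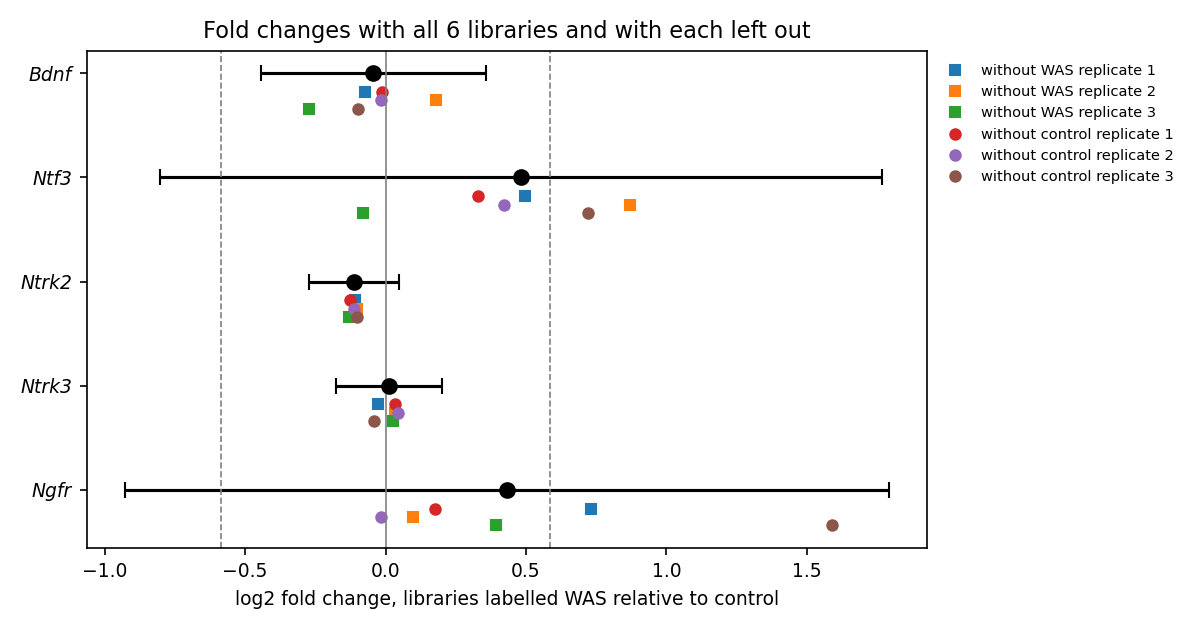
Log2 fold change of the libraries labelled WAS relative to control (horizontal axis) for each gene, with all 6 libraries (black point, bar for the 95% interval) and with 1 library left out (coloured points). The dashed lines mark 1.5-fold, and only Ntrk2 keeps its sign in every such fit, while Ngfr reaches 1.59 without control replicate 3.

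In order of level, Ntrk2 (538 CPM over the 6 libraries) stood above Ntrk3 (145 CPM) and Bdnf (138 CPM), and these above Ngfr (2.56 CPM) and Ntf3 (1.03 CPM). Ntrk2 was above all other members in every library. Ntrk3 and Bdnf overlapped in their ranges, 133 to 152 CPM and 90.5 to 175 CPM, as did Ngfr and Ntf3, 0.587 to 4.62 CPM and 0.428 to 1.98 CPM. Of all genes tested, 98.6% had a lower level than Ntrk2, 90.4% a lower level than Bdnf and 8.60% a lower level than Ntf3.

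The genes whose log2 CPM was most like a member over the 6 libraries are given as a description. For Bdnf these were Srp54c, Mccc2 and Timeless, with Pearson's r of 0.979, 0.975 and 0.974. For Ntf3 they were Phospho2 (0.998), Fgf10 (0.990) and Sgsm1 (0.982), and for Ntrk2 they were Otub2 (0.987), Kdm3b (0.983) and Slc38a6 (0.981). For Ntrk3 they were Brinp3 (0.989), Ppp6r3 (0.978) and Dpp7 (0.978), and for Ngfr they were Hmgxb4 (0.982), Rdh10 (0.974) and Larp4b (0.972). Of the 11155 or 11156 genes of at least 5 CPM compared with each member, between 53 and 98 had an r above 0.9.

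The genes around the neurotrophins were taken from 11 lists by role, with 136 distinct symbols, of which 127 were tested. Of these, 56 were above 0 on the log2 scale and 71 below, with a median of -0.034, where the median over all genes was near 0 and 50.2% were above it. By edgeR 0 passed an adjusted p of 0.05, and by DESeq2 2 did, Egr1 and Mef2c, beside 31 (0.203%) of all genes. At an unadjusted p under 0.05 there were 14, or 11% beside 7.24% of all genes, with 5 higher in the libraries labelled WAS (3.85% of all genes were) and 9 lower (3.40% of all genes were). This balance turned around with total-count scaling, at 10 higher and 5 lower (5.45% and 2.21% of all genes), and was 8 higher and 9 lower with limma on quantile-normalized counts (3.52% and 3.45% of all genes). The groups were apart for 23 of the 127, or 18.1% beside 11.7%. Of the 127, 1 met the study's criteria. Without WAS replicate 2, 26 genes had an unadjusted p under 0.05 and 7 passed an adjusted p of 0.05, beside 13.7% and 3.22% of all genes in that fit.

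Among the genes that handle the precursors, the sortilin family of sorting receptors had 5 members tested, with a median of -0.066. Sort1, the partner of p75 in binding precursors, and Sorl1 were the most abundant, with log2 fold changes of -0.063 and -0.066. Sorcs2, another partner of p75, was at 20.5 ± 2.22 CPM (SD, n = 3) under WAS against 15.6 ± 0.961 CPM (SD, n = 3) under control, and its groups were apart (log2 fold change 0.39, standard error 0.14, edgeR adjusted p = 0.59). It lost an unadjusted p under 0.05 without WAS replicate 2 or control replicate 1. Of the processing enzymes and their inhibitors, 11 of 13 were tested, 7 above 0, with a median of 0.045. Cpe, the carboxypeptidase that also sorts precursors, was at 0.15, and Pcsk2, a prohormone convertase of neurons, at -0.32 (unadjusted p 0.0426). The counts of Pcsk2 were 1822, 2547 and 2051 against 2941, 3032 and 2350, so that the groups overlapped through WAS replicate 2, and without that library the log2 fold change was -0.52 (adjusted p = 0.0118). Pcsk2 lost an unadjusted p under 0.05 with total-count scaling and without WAS replicate 1 or 3 or control replicate 1 or 2, with p up to 0.15.

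Of the partners and adaptors of p75, 11 were tested, with 4 above 0 and a median of -0.034, and 0 had an unadjusted p under 0.05. The most abundant were Lingo1, a coreceptor of p75 (-0.17), and Ngfrap1, which encodes a p75-associated adaptor (0.16, groups apart). The 21 Trk adaptors had a median of 0.10. Grb2, the adaptor that links receptors to Ras, was at -0.049 and Rapgef1 at -0.12. Gab2, a docking protein upstream of PI3 kinase, was at 25.3 ± 3.79 CPM (SD, n = 3) under WAS against 18.6 ± 0.907 CPM (SD, n = 3) under control. Its log2 fold change was 0.44 ± 0.14 (SE, adjusted p = 0.565), and without WAS replicate 2 it was 0.56 (edgeR adjusted p = 0.0476).

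In the Ras-MAP kinase list, 12 of 19 genes were below 0, with a median of -0.066. Araf, a Raf kinase, had counts of 553, 510 and 588 against 803, 658 and 783, with groups apart and a log2 fold change of -0.41 ± 0.10 (SE, adjusted p = 0.498). Braf, another Raf kinase, was at -0.073. In the PI3 kinase list, 8 of 15 were below 0, with Pik3r1, the regulatory subunit, at -0.20 and Pdpk1, the kinase that activates Akt, at -0.30, while Gsk3b was at 0.022. Pik3r1 and Pdpk1 lost an unadjusted p under 0.05 with total-count scaling and without control replicate 1 or 2, Pik3r1 also with limma on quantile-normalized counts and without WAS replicate 3, and Pdpk1 also with DESeq2 and without control replicate 3 or either of WAS replicates 1 and 2. Among the feedback inhibitors of MAP kinase signalling, 5 of 10 were below 0. Dusp7, a phosphatase of ERK, was at 90.2 ± 6.85 CPM (SD, n = 3) under WAS against 114 ± 11.8 CPM (SD, n = 3) under control, with a log2 fold change of -0.34 ± 0.10 (SE, adjusted p = 0.539). Spry2 was at -0.23 and lost an unadjusted p under 0.05 with total-count scaling and without WAS replicate 1 or 3 or control replicate 2 or 3. Dusp6 and Spred1, the most abundant of the list, were at -0.24 and -0.16.

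The regulators of Bdnf transcription held 17 tested genes, 11 of them below 0 and with a median of -0.049. Mef2c, an activity-dependent factor of excitatory neurons and the most abundant of the list, had counts of 18968, 18875 and 16479 in the libraries labelled WAS against 26769, 26416 and 21132 in those labelled control. The groups were apart, with a log2 fold change of -0.41 ± 0.098 (SE, edgeR adjusted p = 0.477), as they were for the excitatory neuron markers given above, whose part in it was not tested. Over its 12 alternatives Mef2c lay between -0.483 and -0.330. It passed an adjusted p of 0.05 with DESeq2, with the replicate block and without WAS replicate 2. Npas4, a neuronal activity factor known to bind Bdnf promoters, had 114, 89 and 124 counts under WAS, 88, 93 and 58 under control, and a difference in log2 units of 0.49 ± 0.21 (SE, adjusted p = 0.67). Npas4 lost an unadjusted p under 0.05 with DESeq2 and without WAS replicate 1 or 3 or control replicate 1 or 3. Usf2 was at 0.054. Bdnf itself, with -0.043, lay near the median of this list.

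Of the neurotrophin-responsive neuronal genes, 11 were tested, with a median of -0.034. Egr1 and Fos, both immediate early genes, were at -0.42 (adjusted p = 0.477) and 0.34 (adjusted p = 0.67), so that they lay on opposite sides. Fos lost an unadjusted p under 0.05 without WAS replicate 3 or control replicate 1 or 3, and Sst was at -0.006. In the GDNF family, another group of neurotrophic factors, 7 genes were tested. Gfra2, the receptor of neurturin, was at 56.9 ± 7.97 CPM (SD, n = 3) against 73.9 ± 1.71 CPM (SD, n = 3), with a log2 fold change of -0.38 ± 0.11 (SE, adjusted p = 0.518), and Gfra1 and Ncam1 were at 0.032 and 0.16. Ret, the kinase receptor of this family, was the 1 gene past the study's criteria, with a log2 fold change of 1.68 ± 0.58 (SE, adjusted p = 0.585). WAS replicates 1 to 3 held 33, 7 and 37 Ret counts and the control replicates 8, 6 and 10, so that only replicates 1 and 3 were high. Midbrain monoamine neuron markers, of cells known to carry Ret, were at 31.8, 15.3 and 72.3 CPM in the same WAS replicates and at 12.8, 12.8 and 15.1 CPM in the control replicates, and their part in the Ret difference was not tested. Of these 6 markers, 4 were tested, all above 0 and 2 with an unadjusted p under 0.05. Without WAS replicate 1 the log2 fold change of Ret was 1.48, and without WAS replicate 2 it was 2.11 (edgeR adjusted p = 0.0202). Ret lost an unadjusted p under 0.05 without WAS replicate 3 or control replicate 2.

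**Figure D4:**
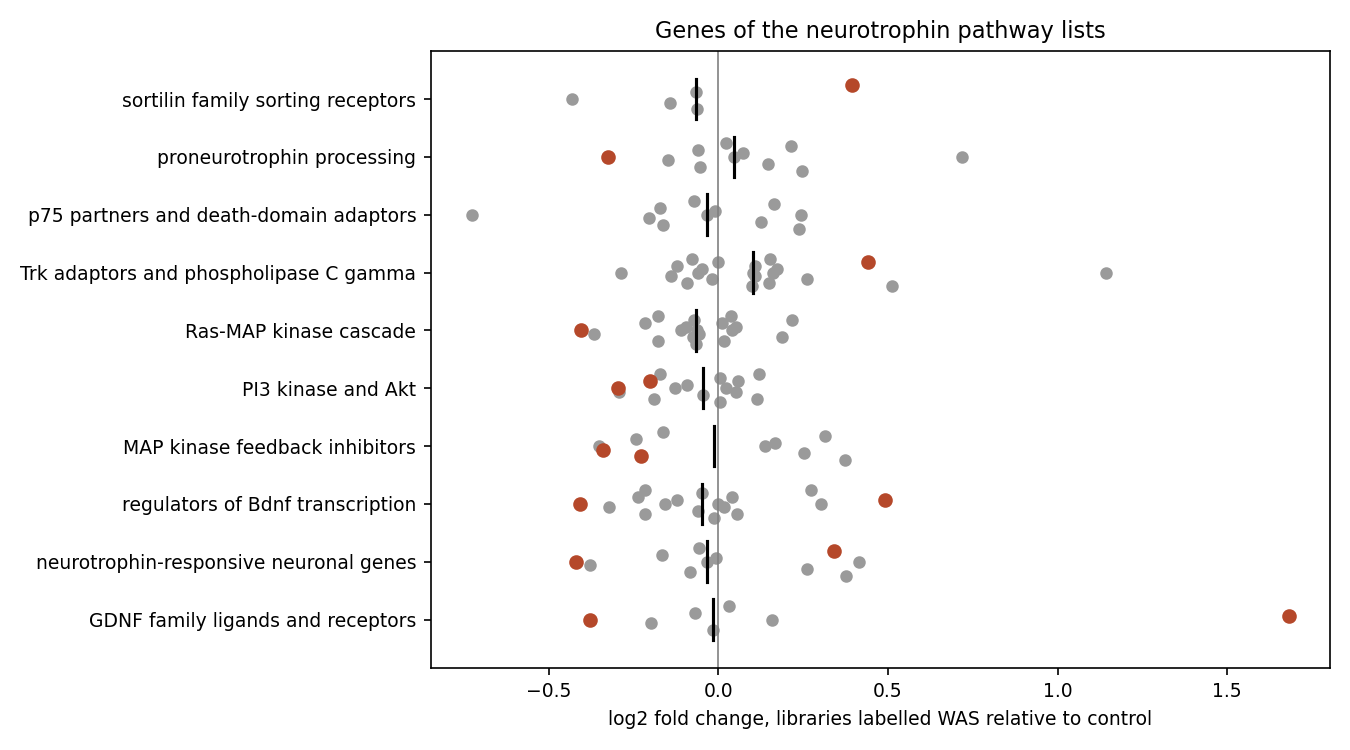
Log2 fold change of the libraries labelled WAS relative to control (horizontal axis) for the tested genes of the 10 pathway lists with more than 1 tested gene (rows), 1 point per gene. Coloured points have an unadjusted p under 0.05 and black bars are list medians, which lie between -0.066 and 0.101. Ret at 1.68 is the point farthest to the right.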

How the data were processed

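The authors sequenced QuantSeq 3′ mRNA libraries from the oligo-dT primed RNA of single mice, with single-end reads of 75 bp, used Bowtie2 for alignment and took gene counts from Bedtools coverage, with reads of several matches kept. Aligner versions and annotation are not given in the sources used here, and the submitters' processing notes name mm10. The deposited values are raw read counts for 23282 entries by gene symbol. Reads matching several genes could be counted more than once. No molecular identifiers are mentioned, and intervals on counts cover counting error only.

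Groups came from the sample labels. Counts were scaled by TMM and tested in edgeR 4.0.16 (R 4.3.3) by the quasi-likelihood test on the 15239 entries with a mean log2(quantile-normalized count + 1) of at least 2, with Benjamini-Hochberg adjustment over all of them. Standard errors are the log2 fold change over the square root of F, and 95% intervals use the fit's t distribution. The fits were checked on simulated counts. Alternatives were total-count scaling, DESeq2 1.42.0, limma 3.58.1 on quantile-normalized log2 counts with a variance trend, 2 other filters, a replicate block, and omission of single libraries. Likeness used log2 CPM with a prior count of 2. The genes named from the pathway lists are the 2 most abundant of each list and those with an unadjusted p under 0.05, of which some are not reported here. Other genes and libraries singled out were chosen after their values were seen. The members, lists and tests were chosen with earlier results of these data known. Promoters and positions are from RefSeq on GRCm38.p6, and a promoter for Ntrk3 and protein sequences were not used here.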

Additional observations from a re-analysis of the deposited data

How the results depend on the processing

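Over 12 alternative analyses per gene, Ntrk2 kept its direction in 12, Bdnf, Ntf3 and Ngfr in 11 each and Ntrk3 in 10, and none of the 5 passed an adjusted p of 0.05 in any of them, DESeq2 giving no adjusted p for Ntf3 and Ngfr. With each library left out, the log2 fold change ran from -0.271 to 0.178 for Bdnf, from -0.082 to 0.871 for Ntf3, from -0.042 to 0.046 for Ntrk3 and from -0.017 to 1.591 for Ngfr. The reversals were Bdnf without WAS replicate 2 (0.178), Ntf3 without WAS replicate 3 (-0.082), Ntrk3 without WAS replicate 1 (-0.026) or control replicate 3 (-0.042), and Ngfr without control replicate 2 (-0.017).

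Leaving out a library gave 264 to 825 genes past the study's criteria in place of 380, 0 to 491 genes past an adjusted p of 0.05 in place of 0, and 10 to 26 pathway genes at an unadjusted p under 0.05 in place of 14 (beside 4.09% to 13.7% of all genes in place of 7.24%), the highest values all without WAS replicate 2. Genes past an adjusted p of 0.05 numbered 31 with DESeq2. With the replicate block they numbered 49, Mef2c among them, and pathway genes at an unadjusted p under 0.05 numbered 23, beside 9.37% of all genes at that p. The labels give same-numbered libraries a common number, and whether these also shared a batch is not given in the sources used here. Their deviations from the group means correlated by 0.066, 0.085 and 0.087, each below 0.1. Each library correlated best with its own number. The causes were not tested. Ntf3 and Ngfr had at most 20 and 45 counts in a library, with counting errors of 31.1% and 19.9% beside coefficients of variation of 53.1% and 64.2%.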
